A study of Mus musculus with 4 samples.

Results

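The insulin-like growth factor (IGF) genes were followed here through the cells of the mouse heart at E10.5. The 10 genes are the ligands *Igf1* and *Igf2*, the non-coding neighbour of *Igf2*, *H19*, the receptors *Igf1r* and *Igf2r*, and the binding proteins *Igfbp2*, *Igfbp3*, *Igfbp4*, *Igfbp5* and *Igfbp7*. They were chosen by symbol, and all 10 were found among the 32285 genes of the count tables. Single cells of the hearts were captured in droplets (10x Genomics) and their RNA sequenced, and each captured transcript carries a unique molecular identifier (UMI) and is counted once. There were 4 libraries, 2 of each genotype, called here by the numbers in their labels. Control libraries 5 and 7 came from *Tie2 fl/fl* embryos without Cre, and *Tie2-cko* libraries 6 and 8 from *Tie2 fl/fl* embryos carrying *Nfatc1Cre*, a knock-in that drives recombination in endocardial cells (EdCs). Since the controls lack Cre, loss of *Tie2* and presence of the knock-in cannot be told apart.

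IGF1 and IGF2 are secreted growth factors that signal through the tyrosine kinase IGF1R to PI3K and AKT, the pathway that also lies downstream of TIE2 and keeps FOXO1 out of the nucleus. IGF2R, also the mannose 6-phosphate receptor, takes up IGF2 for breakdown and does not signal as a kinase. The IGF binding proteins hold the ligands outside the cell and may limit or prolong their action, and IGFBP7 binds IGFs weakly. In the embryonic heart, IGF2 from epicardium and endocardium is known as a mitogen for cardiomyocytes (CMs). *Igf2*, *H19* and *Igf2r* are imprinted in the mouse, *Igf2* being expressed from the paternal allele and *H19* and *Igf2r* mainly from the maternal allele.

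The members lie on 6 chromosomes of GRCm38 (GENCODE M21), 9 as protein-coding genes and *H19* as a long non-coding RNA. *Igf2* (chr7:142650766-142666816, minus strand) and *H19* (chr7:142575529-142578143, minus strand) are 72.6 kb apart with 0 protein-coding genes between them. *Igfbp2* (chr1:72824503-72852474, plus strand) and *Igfbp5* (chr1:72857932-72874884, minus strand) face each other across 5457 bases. *Igf1r* spans chr7:67952827-68233668 on the plus strand, and 0 other genes of the tables overlap it. *Igf2r* (chr17:12682406-12769664, minus strand) is overlapped on the opposite strand by the non-coding *Airn*, *Igf1* by *Igf1os*, *Igf2* by *Igf2os* and *Igfbp7* by *Polr2b* and *Gm34648*. The strand setting of the counting was not stated in the sources used here, so reads of such pairs may be shared.

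Of the 10 members, 9 had a promoter in the RefSeq table (GRCm38.p6), and *H19* had none. The promoter of *Igf1r* is shown because this gene carries the genotype result below, with the GC box (GGGCGG, either strand) in capitals. The window of 300 bases is chr7:67952007-67952306, plus strand, and lies upstream of the GENCODE start of the gene given above.
*Igf1r* promoter: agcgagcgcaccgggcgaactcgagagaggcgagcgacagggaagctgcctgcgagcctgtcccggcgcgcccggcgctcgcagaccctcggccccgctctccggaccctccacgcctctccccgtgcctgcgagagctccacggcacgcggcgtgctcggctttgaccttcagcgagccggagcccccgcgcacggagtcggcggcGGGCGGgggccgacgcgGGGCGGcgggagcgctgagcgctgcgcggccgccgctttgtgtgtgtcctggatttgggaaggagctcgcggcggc

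This window held 2 GC boxes and 48 CpG dinucleotides at 76.0% GC, against medians of 7.0 CpGs and 52.7% GC over 32851 promoters of the same table. A GC box stood in 35.7% of those promoters. The FOXO motif TGTTTAC, searched on both strands, was found in 0 of the members' windows and in 3.65% of all promoters. The TATA box (TATAAA, both strands) was found in the window of *Igfbp4* alone among the members and in 13.6% of all promoters. An E-box (CACGTG, its own reverse complement) was present in the windows of *Igf2r* and of 1 of the 2 *Igfbp2* promoters, and in 7.15% of all. None of these motifs contains another, and a match describes the sequence only.

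*H19* and *Igf2* are each also the host of a microRNA, which the counts of the host transcripts do not measure. The mature arms are shown to tell the hosts' products apart, with the seed (bases 2 to 8) in capitals. Those of *miR-675* lie within *H19* at chr7:142577112-142577133 (5p) and chr7:142577078-142577099 (3p), and those of *miR-483* within *Igf2* at chr7:142654968-142654989 (5p) and chr7:142654932-142654952 (3p), all on the minus strand.
miR-675-5p: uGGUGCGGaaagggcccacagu
miR-675-3p: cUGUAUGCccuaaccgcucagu
miR-483-5p: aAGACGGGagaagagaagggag
miR-483-3p: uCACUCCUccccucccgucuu

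After filtering, 33419 cells were kept, between 5684 and 10097 in a library, with medians of 14878 to 25875 UMIs per cell, highest in library 6. Names of cell types stand for clusters that carried the listed markers, and 12 types held at least 20 cells in every library. CMs, EdCs, mesenchymal cells and epicardial cells were counted as heart cell types, and epithelial, vascular endothelial and blood cells were not. Heart cell types made up 46.9% and 36.6% of kept cells in libraries 5 and 6 and 73.8% and 75.5% in libraries 7 and 8. The first pair thus held more cells from outside the heart types. Library 5 stood apart by its sex-linked genes, with *Xist* at 0.296 UMIs per 10000 against at most 0.00117 in the other libraries, together with Y-linked genes. Between 29 and 62 barcodes were shared by any pair of libraries. The targeted gene *Tek*, which encodes TIE2, fell in chamber EdCs, from 0.884 (library 5) and 1.01 (library 7) UMIs per 10000 to 0.124 (library 6) and 0.152 (library 8). It was the only gene of 11536 past the threshold in these cells (log2 fold change -2.58 ± 0.21 SE, edgeR quasi-likelihood test, adjusted p = 0.0166). The change of *Tek* was also negative in cushion EdCs (-1.96 ± 0.26 SE), mesenchymal cells (-2.19 ± 0.33) and CMs (-1.55 ± 0.42), without passing. In epicardial cells it was -0.14 ± 0.15. The effect on *Tek* in chamber EdCs minus that in CMs was -0.97 ± 0.36 SE (adjusted p = 0.266 by edgeR), which did not pass. Which exons are floxed was not compared with the reads.

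A level below is the number of UMIs of a gene per 10000 UMIs of the cell. It was averaged within each type and library and is given as mean ± SD over the 4 libraries. Where the genotypes are set side by side, values follow the order of the library numbers, 5 and 7 for controls and 6 and 8 for *Tie2-cko*. They compare 1 gene between cell types or libraries, not 1 gene with another, and which type is highest is a description with no test. Each member had its own profile across the 12 types, with epithelial cells highest for 2 members, cushion EdCs for 3, mesenchymal cells (MCs) for 2, and chamber EdCs, vascular endothelial cells (ECs) and the CMs of the sinus venosus and atrioventricular canal (SV/AVC) for 1 each.

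**Figure D1:**
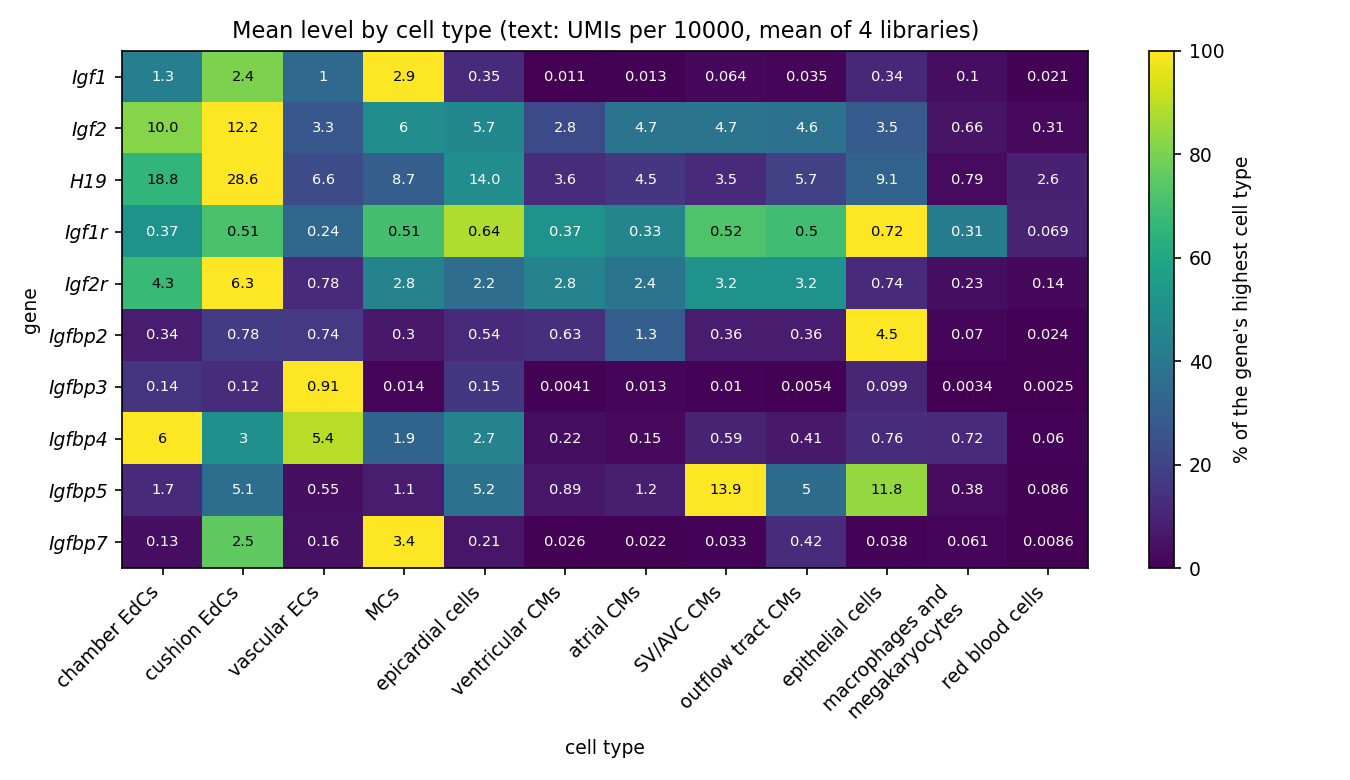
Heatmap of the mean level of the 10 members (rows) in 12 cell types (columns), over the 4 libraries. Numbers are UMIs per 10000, and the colour gives the level as a percentage of the gene's highest cell type. *Igf2*, *H19* and *Igf2r* are highest in cushion EdCs, *Igf1* and *Igfbp7* in MCs, and red blood cells are low for most members.

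*Igf1*, the ligand that later carries the growth hormone signal, had its highest levels in the cells of the cushions. In MCs it stood at 2.69, 2.73, 3.32 and 3.03 UMIs per 10000 in libraries 5, 6, 7 and 8, and in cushion EdCs at 2.25, 2.64, 2.20 and 2.35. The ranges of these types did not overlap, and MCs were above cushion EdCs in all 4 libraries. Chamber EdCs followed at 1.28 ± 0.25 and vascular ECs at 1.00 ± 0.24, with overlapping ranges. Epicardial cells had 0.350 ± 0.049. The 4 types of CMs lay between 0.0110 and 0.0637, and red blood cells, which should lack the gene, at 0.0207, so that the levels of atrial and ventricular CMs were not above this background. MCs supplied 44.4%, 35.5%, 60.4% and 54.6% of all *Igf1* UMIs of libraries 5, 6, 7 and 8. Cushion EdCs supplied 12.7% to 16.4%, chamber EdCs 9.05% to 13.4%, and foregut mesenchyme, which is not of the heart, 6.64%, 13.8%, 0% and 0%.

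*Igf2*, the main fetal ligand, was found in every heart cell type, and most highly in the endocardium. In cushion EdCs its level was 11.8, 16.5, 10.8 and 9.87 in libraries 5, 6, 7 and 8, and in chamber EdCs 9.49, 13.6, 8.40 and 8.61. Cushion EdCs were higher in all 4 libraries although the ranges overlap, and library 6 was the highest in both. MCs (5.997 ± 1.309) and epicardial cells (5.73 ± 1.48) could not be separated by their ranges. Atrial CMs (4.72 ± 0.45), SV/AVC CMs (4.70 ± 1.76) and outflow tract CMs (4.61 ± 0.64) also overlapped. Ventricular CMs were lower at 2.76 ± 0.44, with a range that met only that of SV/AVC CMs among the CMs. Vascular ECs had 3.35 ± 0.16, and red blood cells were lowest at 0.310 ± 0.084, 39.5-fold below cushion EdCs. CMs, 24.2% to 46.3% of a library's kept cells, held 38.9% to 50.7% of its *Igf2* UMIs. Chamber EdCs held 7.96% to 12.6% and cushion EdCs 7.41% to 10.2%, from 2.45% to 7.07% and 2.11% to 5.18% of the cells. Median depth in libraries 5, 6, 7 and 8 was 27690, 48130, 21440 and 23900 UMIs in CMs. In EdCs it was 14810, 26540, 11900 and 11390.

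*H19*, the non-coding RNA whose gene shares enhancers with *Igf2*, followed a similar order. Cushion EdCs held 26.4, 34.8, 26.6 and 26.7 UMIs per 10000 in libraries 5, 6, 7 and 8, above the 16.9, 24.1, 16.1 and 18.2 of chamber EdCs in every library. Epicardial cells came next at 14.0 ± 2.5, with a range that overlapped that of chamber EdCs. SV/AVC CMs (3.53 ± 1.61) and ventricular CMs (3.59 ± 0.79) were the lowest heart types and overlapped. Over the 12 types Pearson's r of the log2 levels of *Igf2* and *H19* was 0.823, a description over types that share libraries.

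The ratio of *H19* to *Igf2* UMIs, the same pair of genes in each type, nevertheless differed between types. It was lowest in SV/AVC CMs, at 0.979, 0.822, 0.598 and 0.770 in libraries 5, 6, 7 and 8. It was 2.29 in chamber EdCs, 2.56 in cushion EdCs, 2.66 in epicardial cells and 1.55 in MCs as means over libraries. Red blood cells stood far off, at 13.2, 23.8, 9.52 and 7.27, each above the 3.62 that was the highest value of any library in the 11 other types. After thinning each cell to 5000 UMIs, 55.8% to 72.1% of red blood cells in a library held an *H19* UMI and 5.58% to 17.3% an *Igf2* UMI. Their median depth was 22810 to 60280 UMIs before thinning.

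**Figure D2:**
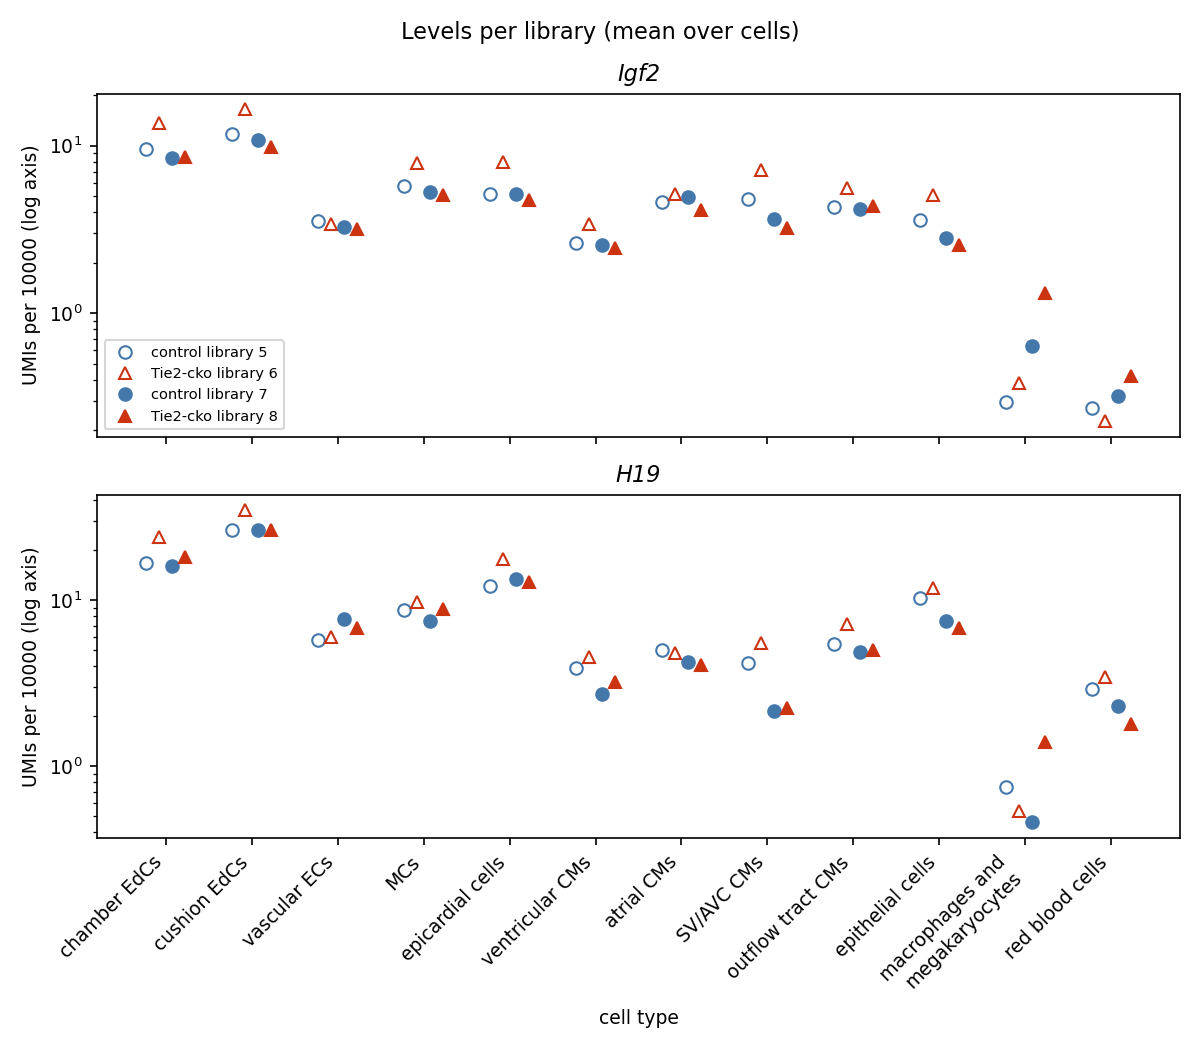
Levels of *Igf2* and *H19* in UMIs per 10000 (log axis) in 12 cell types, 1 symbol per library (circles, control; triangles, *Tie2-cko*; open symbols, libraries 5 and 6). Cushion EdCs are highest for both, and red blood cells fall lowest for *Igf2* but not for *H19*.

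*Igf1r*, the signalling receptor, was the most evenly spread member. Epithelial cells, not counted as a heart type, were highest at 0.724 ± 0.070. Epicardial cells, the highest heart type, followed at 0.637 ± 0.083, with overlapping ranges. SV/AVC CMs (0.523 ± 0.107), cushion EdCs (0.515 ± 0.064), MCs (0.511 ± 0.030) and outflow tract CMs (0.503 ± 0.037) could not be ordered. Chamber EdCs (0.373 ± 0.122) and ventricular CMs (0.372 ± 0.013) had near equal means, but the spread over libraries was larger in chamber EdCs. Red blood cells were at 0.0686 ± 0.0147, 10.6-fold below epithelial cells. CMs held 41.6% to 61.6% of a library's *Igf1r* UMIs.

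*Igf2r*, which clears IGF2, was highest where *Igf2* was highest. Cushion EdCs had 6.35, 7.11, 5.90 and 5.73 UMIs per 10000 in libraries 5, 6, 7 and 8, and chamber EdCs 4.51, 4.75, 3.82 and 3.97, with no overlap. SV/AVC CMs (3.23 ± 0.48) and outflow tract CMs (3.21 ± 0.09) overlapped, as did MCs (2.81 ± 0.30) and ventricular CMs (2.81 ± 0.12). The vascular ECs, in contrast to the EdCs, had only 0.775 ± 0.195, below all CMs, MCs and epicardial cells. CMs held 57.6% to 68.1% of a library's UMIs of this gene.

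The 5 binding proteins each had another highest cell type. *Igfbp4*, a soluble inhibitor of IGF action that the protease PAPP-A cleaves, marked the EdCs of the chambers at 6.04, 6.56, 5.98 and 5.41 in libraries 5, 6, 7 and 8. Vascular ECs were at 4.96, 6.66, 4.46 and 5.34, overlapping with chamber EdCs, and cushion EdCs at 3.02 ± 0.27, below both in every library. Atrial and ventricular CMs had 0.153 ± 0.026 and 0.215 ± 0.083.

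*Igfbp7*, a secreted protein of the matrix, was high in the cushions and low in the chambers. MCs held 3.36, 3.66, 3.15 and 3.28 UMIs per 10000 and cushion EdCs 2.45, 3.03, 2.44 and 2.26 in libraries 5, 6, 7 and 8. Chamber EdCs held 0.134 ± 0.051, with 49 to 108 UMIs in a library, and outflow tract CMs, next after cushion EdCs, held 0.424 ± 0.035. MCs supplied 55.4% to 66.2% of a library's *Igfbp7* UMIs.

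*Igfbp5*, which binds the extracellular matrix, was highest in SV/AVC CMs at 12.9, 16.4, 15.0 and 11.5 in libraries 5, 6, 7 and 8. Outflow tract CMs (4.96 ± 0.47), atrial CMs (1.16 ± 0.13) and ventricular CMs (0.886 ± 0.075) were lower. Epithelial cells were at 8.82, 5.65, 16.3 and 16.3, higher in libraries 7 and 8 than in libraries 5 and 6, and their range overlapped that of SV/AVC CMs. Without library 6 the epithelial cells had the higher mean. Among the endocardial types, cushion EdCs (5.07 ± 0.82) exceeded chamber EdCs (1.70 ± 0.13) with no overlap.

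*Igfbp2*, a binding protein of fetal epithelia, was highest in epithelial cells at 4.47 ± 0.87. Atrial CMs, the highest heart type, followed at 1.33 ± 0.12. The other CMs were lower, at 0.628 ± 0.045 in the ventricle, 0.357 ± 0.073 in the SV/AVC and 0.356 ± 0.050 in the outflow tract. Chamber EdCs (0.345 ± 0.063) had less than cushion EdCs (0.777 ± 0.074), with no overlap of the library ranges.

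*Igfbp3*, the main carrier of IGFs in adult serum, had its highest level in vascular ECs, with 0.488, 0.911, 0.889 and 1.35 UMIs per 10000 in libraries 5, 6, 7 and 8. As a small population they nevertheless supplied only 9.05% to 14.4% of a library's *Igfbp3* UMIs, against 9.66% to 28.0% from epicardial cells, 6.30% to 26.3% from chamber EdCs and 0.211% to 26.2% from an unnamed cluster led by *Lhx2* and *Shisa3*. The vascular EC levels rest on 94, 167, 43 and 103 UMIs from 76, 66, 31 and 47 cells. Epicardial cells (0.149 ± 0.020), chamber EdCs (0.136 ± 0.027) and cushion EdCs (0.116 ± 0.037) overlapped one another and lay below vascular ECs in every library. After thinning, 16.7% to 37.9% of vascular ECs in a library held an *Igfbp3* UMI, against 4.70% to 8.03% of chamber EdCs and 0% to 0.325% of red blood cells. At a cluster resolution of 0.4, which left 11 types, cushion EdCs were the highest type for this gene.

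Likeness of profile was measured by Pearson's r of log2(level + 0.1) over the 12 types among 4394 genes with at least 0.5 UMIs per 10000 in 1 type, and it is a description. The closest gene to *Igf2r* was its antisense neighbour *Airn* (r = 0.969), followed by *Rabac1* (0.960) and *Mical2* (0.948). Among the genes most like *Igf1* were *Traf4* (0.964) and *Hapln1* (0.963). *Igf2* was closest to *Rbms2* (0.974), *Calu* (0.971) and *Hmg20b* (0.958), and *H19* to *Uaca* (0.897), *Rbms2* (0.887) and *Col18a1* (0.885). *Igf1r* had *Zfp292* (0.956), *Pcm1* (0.956) and *Ei24* (0.956) nearest.

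Of the binding proteins, *Igfbp4* was most like *Cmtm3* (r = 0.981), *Eva1b* (0.972) and *Mapk3* (0.958), and *Igfbp3* was most like *N4bp3* (0.915), the tight junction gene *Cldn5* (0.905) and *Ldb2* (0.904). *Igfbp7* was nearest to the unnamed loci *Gm14226* (0.931) and *Gm35533* (0.928) and to *Msx1* (0.882). *Igfbp5* had *Tiparp* (0.915), *Sdf2* (0.912) and *Rab24* (0.898), and *Igfbp2* had *Acvr2b* (0.894), *Nipsnap1* (0.870) and *Fzd3* (0.867). *Cldn5* and *Msx1* are markers that named the clusters.

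The genotypes were then compared on UMI counts summed per library over the cells of a type, in 5 types, with edgeR's quasi-likelihood test and Benjamini-Hochberg adjustment over all genes tested. All 10 members passed the filter on low counts in each type. The count of members past the threshold of 0.05 was 0 in chamber EdCs, where 2 members (*Igf1r* and *H19*) had an unadjusted p under 0.05, as did 819 of all 11536 genes. It was 0 in cushion EdCs, where 1 (*Igfbp3*) had, as did 278 of 11324 genes. It was also 0 in CMs, MCs and epicardial cells, with 0 members at an unadjusted p under 0.05 in each. DESeq2 called 0 members in each of the 5 types as well. Over all genes, 0.00867% of 11536 were called in chamber EdCs, 0.0335% of 11946 in epicardial cells and 0.0% in the other types, so that few calls were made for any gene with 2 libraries a genotype. The 4 genes called in epicardial cells were the globins *Hbb-bt*, *Hbb-bh1*, *Hbb-y* and *Hba-x*, all lower in *Tie2-cko*. By the study's methods the hearts of a stage and genotype came from 1 litter, with control and mutant libraries matched by somite number, so p-values measure only the spread between these libraries. Which library matches which was not stated in the sources used here.

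*Igf1r* was the member with the smallest p in chamber EdCs. Its level there was 0.264 and 0.286 UMIs per 10000 in controls, and 0.416 and 0.526 in *Tie2-cko*. Both *Tie2-cko* libraries lay above both controls, as did those of 20% of all genes tested in this type. The levels rest on 203 and 264 UMIs in the controls and 269 and 372 in *Tie2-cko*. The log2 fold change was 0.82 ± 0.15 SE (95% interval 0.46 to 1.17, unadjusted p = 0.00072 and adjusted p = 0.244 by edgeR), so the call did not pass over all genes. The adjusted p was between 1.021e-09 and 0.741 over 12 alternatives, of which 4 passed.

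The share of chamber EdCs with an *Igf1r* UMI after thinning to 5000 UMIs was 10.8% and 10.2% in controls and 18.5% and 24.3% in *Tie2-cko*. In red blood cells it was 2.91% and 2.92%, and 2.48% and 4.62%, respectively. Without thinning the shares in chamber EdCs were 33.7%, 61.2%, 30.3% and 42.8% in libraries 5, 6, 7 and 8, the median depth being highest in library 6. The level of *Tie2-cko* library 6 was 1.58 times that of control library 5, and that of library 8 was 1.84 times that of library 7. These pairs are not given by the labels and were not shown to be matched.

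In CMs the level of *Igf1r* was 0.382 and 0.407 in controls and 0.425 and 0.409 in *Tie2-cko*. The log2 fold change of the summed counts was 0.01 ± 0.12 SE (95% interval -0.29 to 0.32). The genotype effect on *Igf1r* in chamber EdCs exceeded that in CMs by 0.79 ± 0.12 SE on the log2 scale (95% interval 0.55 to 1.04, edgeR test of the interaction of type and genotype, blocked by library, adjusted p = 0.00156). It was the only member of 10 past the threshold, and 0.78% of all 15376 genes tested were. *Igf1r* passed this test in each of the 10 alternatives run, among them each library left out in turn, with differences of 0.72 to 0.87 and adjusted p from 1.713e-07 to 0.0213.

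The other types lay between these. In cushion EdCs *Igf1r* was at 0.489 and 0.439 in the controls and 0.580 and 0.551 in *Tie2-cko*, and in epicardial cells at 0.601 and 0.540 against 0.726 and 0.680. In MCs it was at 0.502 and 0.477 against 0.549 and 0.518. *Tie2-cko* libraries were above controls in each of these types, though the fold changes of 0.22 ± 0.14 SE, 0.22 ± 0.13 and 0.12 ± 0.12 did not pass (adjusted p = 0.9988, 0.9997 and 1 by edgeR). The corresponding shares of all genes with both *Tie2-cko* libraries on top were 18.0%, 14.8%, 15.5% and, in CMs, 12.2%. The excess of the effect in chamber EdCs over that in MCs was 0.71 ± 0.13 SE (adjusted p = 0.00209), a comparison chosen after seeing the data. Over epicardial cells it was 0.61 ± 0.13 (adjusted p = 0.063) and over cushion EdCs 0.58 ± 0.15 (adjusted p = 0.134), which did not pass, also by edgeR. In vascular ECs the levels were 0.257 and 0.104 in the controls and 0.306 and 0.296 in *Tie2-cko*, on as few as 6 UMIs in library 7.

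**Figure D3:**
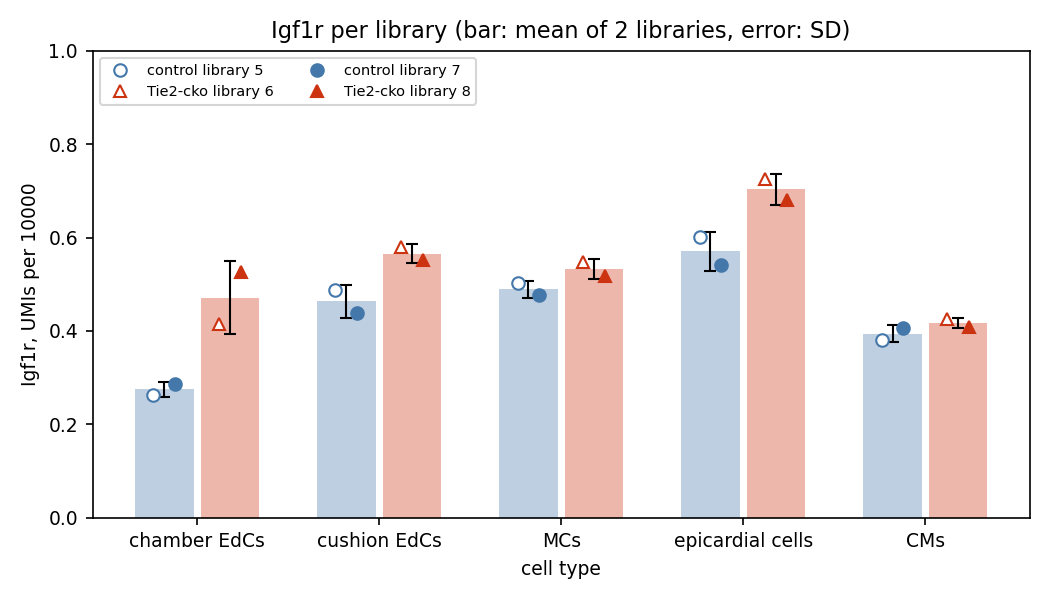
*Igf1r* in UMIs per 10000 in 5 cell types, with bars for the mean and error bars for the SD of 2 libraries per genotype and 1 symbol per library. In chamber EdCs the *Tie2-cko* libraries (0.416 and 0.526) lie farther above the controls (0.264 and 0.286) than in CMs.

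Transcripts of other cells in the chamber EdCs also differed between libraries. The summed level of 5 red blood cell markers there was 74.8 and 33.3 UMIs per 10000 in controls and 12.6 and 12.2 in *Tie2-cko*, with none of the 5 at 0. The summed level of 8 CM markers was 10.2, 7.25, 13.3 and 15.3 in libraries 5, 6, 7 and 8, and that of 8 MC markers 1.07, 1.53, 1.07 and 1.48, with none at 0. For 6 epicardial markers it was 0.0471, 0.103, 0.112 and 0.114. The red blood cell sum was also lower in *Tie2-cko* in the other tested types, in CMs at 43.85 and 19.11 in controls against 12.91 and 7.32. The part of transcripts of other cells in the result on *Igf1r* was not tested.

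*H19* in chamber EdCs had both *Tie2-cko* libraries above both controls (the values above), as did 20% of all genes tested there. Its log2 fold change was 0.36 ± 0.15 SE (adjusted p = 0.689 by edgeR). In cushion EdCs and MCs its *Tie2-cko* libraries were also above, beside 18.0% and 15.5% of all genes. In chamber EdCs *H19* passed with a block for libraries 5 and 6 (0.35, adjusted p = 0.0125 by edgeR), a setting that called 943 of 11536 genes. Library 6 was the highest of the 4 there, and in 9 of the 12 types *H19* was highest in this library. The same count was 9 for *Igf2* and 9 for *Igfbp4*. Without library 6, the change of *H19* in CMs turned from 0.08 to -0.09 and that of *Igf2* in cushion EdCs from 0.13 to -0.13.

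*Igfbp3* in cushion EdCs was at 0.130 and 0.0656 in controls and 0.117 and 0.153 in *Tie2-cko*, which overlap. Summed counts were 36 and 38 UMIs against 55 and 122, with a log2 fold change of 1.15 ± 0.26 SE (adjusted p = 0.999 by edgeR). It passed with the block (1.16, adjusted p = 0.000138 by edgeR), which called 121 of 11324 genes, and with no filter on low counts (adjusted p = 0.00385). *Igfbp5* in cushion EdCs was at 5.41 and 5.84 against 5.10 and 3.92, and both *Tie2-cko* libraries were below, as in 9.86% of all genes tested there. Its log2 fold change was -0.40 ± 0.18 SE (adjusted p = 0.999 by edgeR), and it passed with the block alone (-0.42, adjusted p = 0.00373). In chamber EdCs *Igfbp5* was at 1.86 and 1.74 against 1.59 and 1.61 by the mean over cells, while the summed counts gave 0.04 ± 0.14 SE. *Igfbp2* there was at 0.416 and 0.372 against 0.271 and 0.321, with -0.24 ± 0.16 SE (adjusted p = 0.817 by edgeR), and 14.0% of genes had both *Tie2-cko* libraries below. In CMs and MCs 0 members had both *Tie2-cko* libraries below, beside 7.53% and 8.19% of all genes, and in epicardial cells 1 member had (*Igfbp7*, at 0.203 and 0.227 against 0.198 and 0.1996), beside 10.2%.

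*Igfbp4* in chamber EdCs was at 6.04 and 5.98 in controls and at 6.56 and 5.41 in *Tie2-cko*. Its effect in chamber EdCs minus that in CMs was -0.36 ± 0.18 SE (adjusted p = 0.451 by edgeR), and it was called in 3 of 10 alternatives, among them without library 5 (-0.79) and without library 8 (-0.59), but was 0.06 without library 7. *Igf2r* gave a log2 fold change of 0.08 ± 0.14 SE in chamber EdCs (95% interval -0.24 to 0.40) and -0.05 ± 0.14 in cushion EdCs (-0.37 to 0.26). *Igf1* in MCs, its main source, gave -0.11 ± 0.16 SE (95% interval -0.49 to 0.27), and *Igfbp7* there 0.01 ± 0.13 (-0.29 to 0.30).

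**Figure D4:**
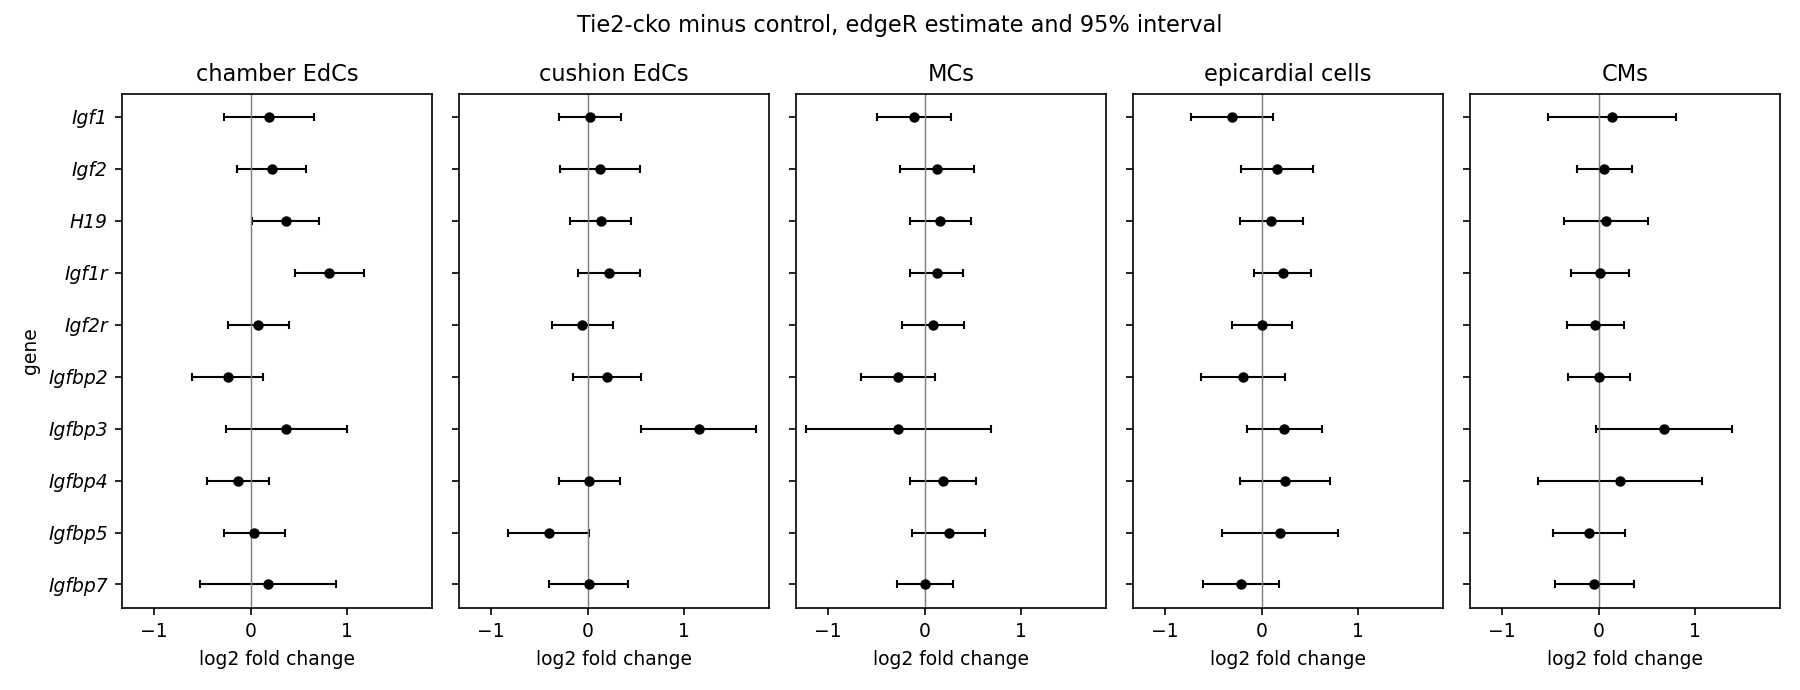
Log2 fold change of the 10 members, *Tie2-cko* minus control, in 5 cell types, with 95% intervals from edgeR on counts summed per library. *Igf1r* in chamber EdCs (0.82) and *Igfbp3* in cushion EdCs (1.15) lie farthest from 0 among the members whose interval excludes it.

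Among 32 further genes of the insulin and IGF pathway, 25 were tested in chamber EdCs, and edgeR called 0 in either direction. Their median log2 fold change was 0.13, beside 0.18 for the members and 0.00 for all genes. These medians moved with single libraries. Without libraries 5, 6, 7 and 8 in turn, that of the members was 0.21, 0.16, 0.11 and -0.04. That of the pathway genes was 0.13, 0.09, 0.10 and 0.17. *Pappa*, the protease that cleaves IGFBP4, had 0.79 ± 0.21 SE (adjusted p = 0.440) and the insulin receptor substrate *Irs1* 1.34 ± 0.45 (adjusted p = 0.601), the 2 of 25 with an unadjusted p under 0.05 by edgeR, named after their values were seen. *Irs1* rests on 7 UMIs in each control library and 12 and 16 in *Tie2-cko*. *Grb10*, an adaptor that restrains insulin and IGF receptors, had the highest level of the list in control chamber EdCs, at 1.84 and 1.49 in the controls and 2.25 and 2.02 in *Tie2-cko* (0.27 ± 0.14 SE, adjusted p = 0.733 by edgeR). The RNA-binding proteins *Igf2bp1* and *Igf2bp3* followed, with changes of -0.01 ± 0.15 and 0.01 ± 0.13 SE. DESeq2 called 0 genes of either list in each of the 5 cell types. In the 4 other cell types edgeR called 0 genes of this list, with 0 or 1 at an unadjusted p under 0.05, and in the comparison of chamber EdCs with CMs it called 0 of 26, with 5 under 0.05, beside 1787 of all 15376 genes.

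Of 20 other imprinted genes, 19 were tested in chamber EdCs, and edgeR called 0, with 4 at an unadjusted p under 0.05 (819 of all 11536 genes) and a median of 0.12. That median was 0.16, 0.0014, 0.073 and 0.18 without libraries 5, 6, 7 and 8 in turn. The 4 genes with an unadjusted p under 0.05, named after their values were seen, were *Asb4* (0.87 ± 0.17 SE), *Peg10* (0.61 ± 0.14), *Peg3* (0.47 ± 0.15) and *Nnat* (0.34 ± 0.13). The highest of the list in control chamber EdCs were the cell cycle inhibitor *Cdkn1c*, *Mest* and *Gnas*, with changes of -0.09 ± 0.21, 0.12 ± 0.14 and 0.10 ± 0.13 SE. In the comparison of chamber EdCs with CMs 2 of 20 passed, beside 0.78% of all 15376 genes tested.

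*Asb4*, a ubiquitin ligase subunit, was at 0.364 and 0.297 UMIs per 10000 in control chamber EdCs and 0.652 and 0.553 in *Tie2-cko*. In CMs it was at 0.311 and 0.291 against 0.3995 and 0.314, and the effects differed by 0.70 ± 0.13 SE (adjusted p = 0.00753 by edgeR). *Dlk1*, a Notch-related membrane protein, was at 0.522 and 0.808 in control chamber EdCs and 0.416 and 0.437 in *Tie2-cko*. In CMs it was at 0.257 and 0.422 against 0.542 and 0.422, so that library 5 was lowest and library 6 highest, and the difference was -0.78 ± 0.11 SE (adjusted p = 0.00123 by edgeR). The call on *Asb4* held in 6 of 10 alternatives and that on *Dlk1* in all 10.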

How the data were processed

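Count tables of 4 libraries (embryonic day 10.5) were used. The authors deposited filtered UMI counts per gene and barcode, made with Cell Ranger (6.1.2 by the file header, another version by the methods) on mm10 by the submitters' notes, not normalized and not pooled. The 10 members and the gene lists were chosen with earlier results of these data known. Cells with at least 500 genes, 1000 UMIs and at most 10% mitochondrial UMIs were kept, and doublets were removed with Scrublet (scanpy 1.11.5). Cells were clustered with Seurat 5.3.0 (2000 variable genes, 30 components, resolution 0.8), with 68 genes of the lists held out. Clusters were named from marker lists, and some naming conditions were set after clusters were seen. Types with at least 20 cells in every library were ranked. Counts were summed per library and type and tested with edgeR 4.0.16 (R 4.3.3), with *Tie2-cko* against control, Benjamini-Hochberg adjustment over all genes and a threshold of 0.05. DESeq2 1.42.0, other filters, cluster resolutions, a block and each library left out were alternatives. Library totals were 169361996 to 259775540 UMIs. The models were tested on simulated data. Genes named beyond the members were the 3 most alike and the 3 highest of each list, and any called gene of a list. A gene that this rule names for *Igf1* is not reported here.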

Additional observations from a re-analysis of the deposited data

Results flagged for a closer look

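The genotype effect differed between chamber EdCs and CMs by the test of the difference for 1 member and 2 imprinted genes. Of all 15376 genes tested, 0.78% passed this test. Within chamber EdCs alone none of these genes passed (edgeR, adjusted p = 0.244 for *Igf1r*, 0.2485 for *Asb4* and 0.809 for *Dlk1*). For *Igf1r* the effect in chamber EdCs was higher by 0.79 ± 0.12 SE on the log2 scale (edgeR, adjusted p = 0.00156). Both *Tie2-cko* libraries lay above both controls in chamber EdCs, as did those of 20% of all genes tested there. For *Asb4* the effect was higher by 0.70 ± 0.13 SE (edgeR, adjusted p = 0.00753), with adjusted p up to 0.240 over 10 alternatives. For *Dlk1* it was lower, at -0.775 ± 0.11 SE (edgeR, adjusted p = 0.00123), with differences of -0.86 to -0.72 over 10 alternatives. The fall of red blood cell transcripts in the *Tie2-cko* libraries moved with genotype in chamber EdCs and likewise in CMs and the other tested types. Its part in these differences was not tested.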

How the results depend on the processing

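Direction and side of the threshold were the same in 498 of 570 comparisons of 50 log2 fold changes with their alternatives, 8 more passed the threshold, 0 no longer passed it and 64, in 30 results, changed sign. As none of the 50 passed in the main setting, none could cease to pass, and that 0 carries no information. In chamber EdCs, where 0 members were called, 1 was called with no filter on low counts, 2 (*Igf1r* and *H19*) with a block for libraries 5 and 6 and 0 to 1 with a library left out, 1 (*Igf1r*) without library 5 and 1 (*Igf1r*) without library 6. In cushion EdCs 1 (*Igfbp3*) was called with no filter and 2 (*Igfbp3* and *Igfbp5*) with the block. The block sets libraries 5 and 6 against 7 and 8, 1 of each genotype, by their share of cells from outside the heart types. It is not a pairing by replicate number, since the labels give the genotypes none in common, and it called 943 of 11536 and 121 of 11324 genes in chamber and cushion EdCs. Against CMs, 1 member differed in the main comparison, 2 with no filter, 2 with the stricter cell filter (*Igf1* besides *Igf1r*, at -0.64 with adjusted p = 0.0216 by edgeR against 0.07 in the main comparison) and 1 to 2 with a library left out (2 without library 5 and without library 8). In place of CMs, MCs gave 2, cushion EdCs 0 and epicardial cells 0, chosen after seeing the data. The difference for *Igfbp4* ranged from -0.79 to 0.057 with a library left out. The highest cell type was the same for 9 or 10 of 10 members: *Igfbp5* moved to epithelial cells with the stricter cell filter and without library 6, and *Igfbp3* to cushion EdCs at a cluster resolution of 0.4. In simulated counts in which 200 genes carried a log2 change of 1, 120 of 200 were recovered in chamber EdCs, 113 in cushion EdCs, 105 in CMs, 117 in MCs, 105 in epicardial cells and 98 in the comparison of chamber EdCs with CMs. Of the simulated calls, 8.41% to 13.3% were of unchanged genes, above the nominal 5%. Simulated counts were drawn independently for each gene and held no shifts shared by the genes of a library. Recovery in the real libraries may therefore differ. With each library left out in turn, log2 fold changes with a turn of sign ranged as follows. In chamber EdCs, *Igf1* from -0.075 to 0.43, *Igf2r* from -0.015 to 0.18, *Igfbp3* from -0.14 to 0.74, *Igfbp5* from -0.087 to 0.15 and *Igfbp7* from -0.40 to 0.59. In cushion EdCs, *Igf1* from -0.085 to 0.12, *Igf2* from -0.13 to 0.36, *Igf2r* from -0.11 to 0.0030, *Igfbp4* from -0.049 to 0.084 and *Igfbp7* from -0.23 to 0.22. In CMs, *Igf1* from -0.25 to 0.43, *Igf2* from -0.028 to 0.15, *H19* from -0.086 to 0.27, *Igf1r* from -0.079 to 0.12, *Igf2r* from -0.13 to 0.058, *Igfbp2* from -0.10 to 0.11, *Igfbp4* from -0.22 to 0.66, *Igfbp5* from -0.24 to 0.029 and *Igfbp7* from -0.21 to 0.15. In MCs, *Igf1* from -0.26 to 0.062, *Igf2* from -0.082 to 0.31, *Igf2r* from -0.023 to 0.20, *Igfbp3* from -0.58 to 0.042 and *Igfbp7* from -0.038 to 0.052. In epicardial cells, *Igf2* from -0.044 to 0.34, *Igf2r* from -0.079 to 0.079, *Igfbp2* from -0.47 to 0.061, *Igfbp4* from -0.069 to 0.50 and *Igfbp5* from -0.19 to 0.50. Of the other alternatives, these turned a sign. With chamber and cushion EdCs together, *Igfbp2* in chamber EdCs at 0.088, *Igfbp5* in chamber EdCs at -0.18. With a cell filter of 1500 genes and 5% mitochondrial UMIs, *Igfbp5* in chamber EdCs at -0.0039, *Igf1* in cushion EdCs at -0.0061, *Igfbp7* in cushion EdCs at -0.035, *Igfbp2* in CMs at -0.0052, *Igfbp7* in CMs at 0.028. With doublets kept, *Igfbp5* in chamber EdCs at -0.029, *Igf1* in cushion EdCs at -0.011, *Igfbp4* in cushion EdCs at -0.069. At a cluster resolution of 0.4, *Igf2* in cushion EdCs at -0.023, *Igfbp7* in cushion EdCs at -0.14. At 1.2, *Igf2r* in cushion EdCs at 0.0052, *Igfbp4* in cushion EdCs at -0.057. With a block for libraries 5 and 6, *Igfbp7* in cushion EdCs at -0.0060, *Igf2r* in epicardial cells at -0.0013. With ventricular CMs only, *Igf1* in CMs at -0.085, *Igf1r* in CMs at -0.010, *Igfbp2* in CMs at -0.040, *Igfbp5* in CMs at 0.12. With no filter on low counts, *Igfbp7* in MCs at -0.0023, *Igf2r* in epicardial cells at -0.0064. With DESeq2, *Igf2r* in epicardial cells at -0.0052. The causes were not tested.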
